A study of Colocasia esculenta with 4 samples.

Results

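Compact multi-exon genes of taro (Colocasia esculenta), an aroid grown for its starchy corm, are described here by their gene structure and by their transcripts in the shoot apex. A gene was included if its annotation had at least 2 exons after overlapping exons were merged, and if all its introns together came to 500 bp or less. Only genes in stretches of 6 linkage groups (chromosome-scale sequences) with counted reads were considered, namely LG03 up to position 186898486, LG05 from position 8000001, LG07 up to position 112416047, and the whole of LG09, LG11 and LG12. This gave 2193 genes of the 28695 in the annotation, or 20.03% of the 10950 genes in these stretches. The stretches had been chosen by where reads were counted, so the overall detected share within them is a consequence of that choice. The limit on intron length uses the annotation alone.

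The study sequenced 4 replicate libraries of a single group, so no treatment, genotype or time point was compared. The tissue was the apical meristem of cultivar Bing Liang (also spelled Bin Liang in the labels), dissected with its leaf primordia and very young leaves, and labelled apex leaf. Neither plant age nor whether the replicates came from separate plants is stated, so the spread between libraries may be technical. The series title points to proteins that accompany raphides, which are needles of calcium oxalate formed in taro tissue.

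Introns are removed from the primary transcript by the spliceosome, which recognises short sequences at both ends of the intron and a branch site inside it. An intron must be long enough to hold these elements, so plant introns have a lower size limit in practice, while no comparable upper limit exists. In plants with large genomes many introns are enlarged by inserted transposable elements, and genes with only short introns stand apart from the bulk of the annotation. Short introns are thought to be recognised as a unit across the intron, whereas exons flanked by long introns are recognised across the exon.

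Of the 2193 compact genes, 1408 had 2 exons, 567 had 3, 161 had 4, 47 had 5 and 10 had 6 or more. Their summed exon length had a median of 783 bp, and their summed introns had a median of 166 bp. The 6616 other multi-exon genes of the same stretches had a median of 6 exons, 1547 bp of exon sequence and 3716 bp of introns. Introns made up a median of 16.2% of the span of a compact gene and 72.3% of the span of the others. In compact genes of 2 exons the intron lay a median of 38.8% of the way along the exon sequence from the 5′ end, and a median of 40.9% in other genes of 2 exons. The strands were evenly used, with 51.4% of compact genes on the plus strand and 51.5% of the others.

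The single introns of compact genes spread over lengths up to the 500 bp limit, with 2 peaks. Of their 3266 introns, 1071 (32.8%) measured at least 70 and under 120 bp, a range that also held 27.3% of the 38748 introns of the other multi-exon genes. A smaller peak of shorter introns was present in both classes and held a larger share in compact genes. Introns of at least 30 and under 40 bp numbered 192 (5.88%) in compact genes and 237 (0.612%) in the others. Gaps under 20 bp, which leave little room for the splicing elements, numbered 133 (4.07%) in compact genes and 94 (0.243%) in the others. A low limit on summed introns favours short introns by construction, so these shares describe the class and were not tested. Of introns under 20 bp in compact genes, 9.77% had a length that is a multiple of 3, against 33.6% of introns of 60 to 500 bp in the same genes.

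**Figure D1:**
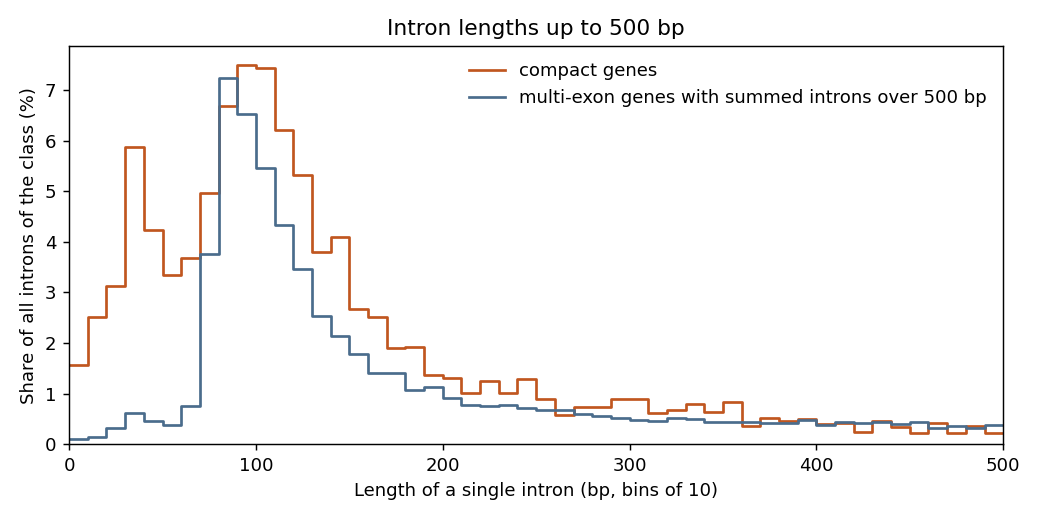
Lengths of single introns up to 500 bp, in bins of 10 bp, as a share of all introns of compact genes (orange) and of other multi-exon genes (blue). Both classes peak near 80 to 110 bp, and both have a smaller peak between 30 and 40 bp, which holds 5.88% of introns in compact genes and 0.612% in the others.

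The libraries held 22301051, 25434148, 23365618 and 22252534 counts in replicates 1 to 4. Detection required 1 CPM or more (a count scaled to the library's total) in every library. Compact genes took 6.26% ± 0.180 of all counts (SD, n = 4). A gene at 0 counts may have up to 3 counts at this depth, which corresponds to 0.118 to 0.135 CPM and covers counting error only. Reads aligning to several places were counted at each, so levels of genes with near-identical copies are uncertain. In all, 77 compact genes (3.51%) shared all ordered exon lengths with another annotated gene, a share not given for other genes. Pairs of unequal exon length with near-equal counts are missed by this measure. EVM0013040 (1362 bp of exons) and EVM0018913 (1321 bp) had 1781 and 1783 counts in replicate 1, and 1126 and 1130 in replicate 4.

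Fewer compact genes were detected in the apex than genes of the same exon number and exon length with longer introns. Of the 2193 compact genes, 961 (43.8%) were detected, while 66.9% of all genes in these stretches and 82.9% of multi-exon genes with longer introns were. Each compact gene was then set against the genes with the same number of exons, a summed exon length within 10% and summed introns over 500 bp. A median of 56 such genes was available per compact gene, and 7 compact genes had none. Among the 2186 that could be matched, 43.7% of compact genes and 61.7% of their matched genes were detected, a difference of -17.9 percentage points.

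The difference was present in each library. With 1 CPM asked for in a single library, 48.4%, 47.7%, 48.4% and 45.8% of compact genes were detected in replicates 1 to 4, against 63.8%, 63.7%, 64.2% and 63.1% of matched genes. Both sets of values were narrow and did not overlap. The difference was -16.1 ± 0.840 percentage points (SD, n = 4), larger than the spread between libraries. The same genes were measured in each library, so this SD does not cover variation among genes. An exact two-sided sign-flip permutation test over the 4 libraries gave p = 0.13, the smallest that 4 libraries allow. With the same genes in each library, a difference between gene classes tends to keep its sign. The test therefore cannot judge the difference between the classes.

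Undetected compact genes were of 2 kinds. No read was counted in any library for 577 (26.3%), and 655 (29.9%) had reads without reaching the limit, at a median of 14 counts in all. In the matched genes these shares were 18.9% and 19.5%. At the other end, 100 compact genes (4.56%) were detected at a mean of 100 RPKM or more (reads per kilobase of exon, scaled to the library's total), against 11.9% of matched genes. A mean of 1000 RPKM or more was reached by 6 compact genes (0.274%), against 0.367% of matched genes.

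The gap was present in every class of exon number. In a single library, 45.3% ± 1.45 of compact genes of 2 exons were detected, against 59.1% ± 0.485 of their matched genes (SD, n = 4). For 3 exons the shares were 49.3% ± 0.305 in compact and 69.2% ± 0.555 in matched genes, and for 4 exons 60.2% ± 2.63 and 77.3% ± 0.270. For 5 exons they were 53.2% ± 3.01 in compact and 82.2% ± 0.340 in matched genes, from only 47 compact genes. The detected share of matched genes was higher in each class of more exons than in the class before it. That of compact genes was highest at 4 exons, and the 10 genes with 6 or more exons (47.5% ± 5.0 detected) were too few to place.

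**Figure D2:**
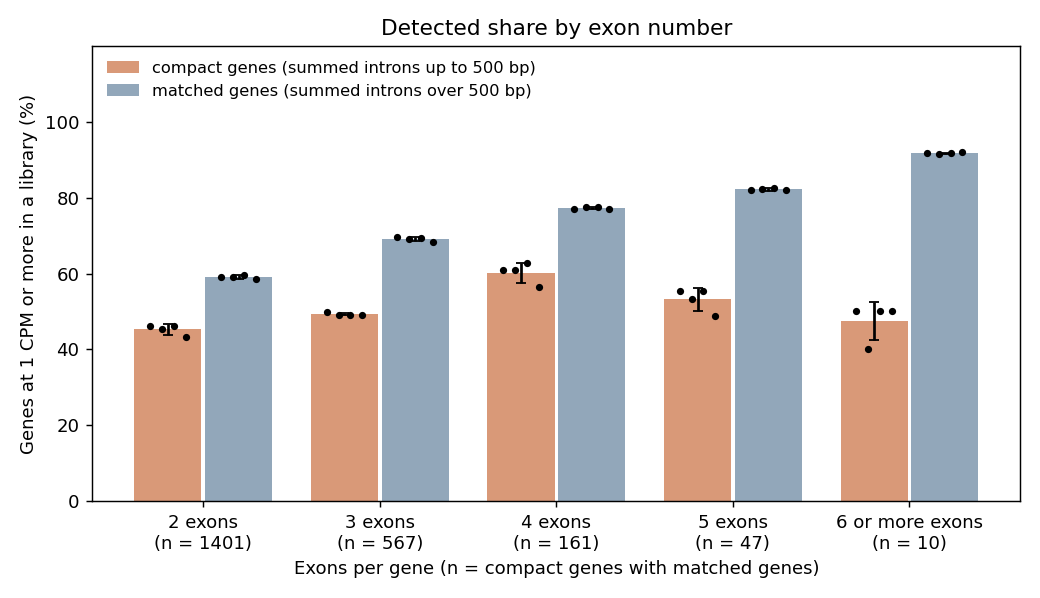
Share of genes with at least 1 CPM in a library, for compact genes (orange, left of each pair) and matched genes with longer introns (blue, right), by exon number. Bars are means and error bars SD over the 4 libraries (points); compact genes lie below matched genes in every class, from 45.3% against 59.1% at 2 exons to 53.2% against 82.2% at 5 exons.

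The detected share and the gap also varied with exon length. Of the 553 compact genes with up to 500 bp of exon sequence, 25.3% were detected, and the difference from matched genes was only -7.33 percentage points. For exon sequence of over 500 to 1000 bp the difference was -26.4 points, with 31.7% of 800 compact genes and 58.1% of matched genes detected. It was -19.3 points at over 1000 to 2000 bp and -10.5 points above 2000 bp, where 81.3% of 241 compact genes were detected. The 6 linkage groups gave differences between -23.0 points on LG11 and -14.1 points on LG09, all of the same sign.

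The detected share of matched genes changed step by step with intron length, without a break at the 500 bp limit. After matching on exon number and exon length, 43.8% of compact genes were detected beside 47.9% of genes with over 500 to 1000 bp of introns, a difference of -4.17 points. The share was 61.3% for introns of over 1000 to 2000 bp, 75.9% for over 2000 to 5000 bp and 82.2% above 5000 bp. Within the compact class the difference hardly varied with intron length. It lay between -19.0 and -17.5 percentage points in all 5 classes of 100 bp. Compact genes were also close to genes without introns. Beside single-exon genes with an exon length within 10%, the shares were 43.7% for compact genes and 42.2% for single-exon genes, a difference of 1.49 points.

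**Figure D3:**
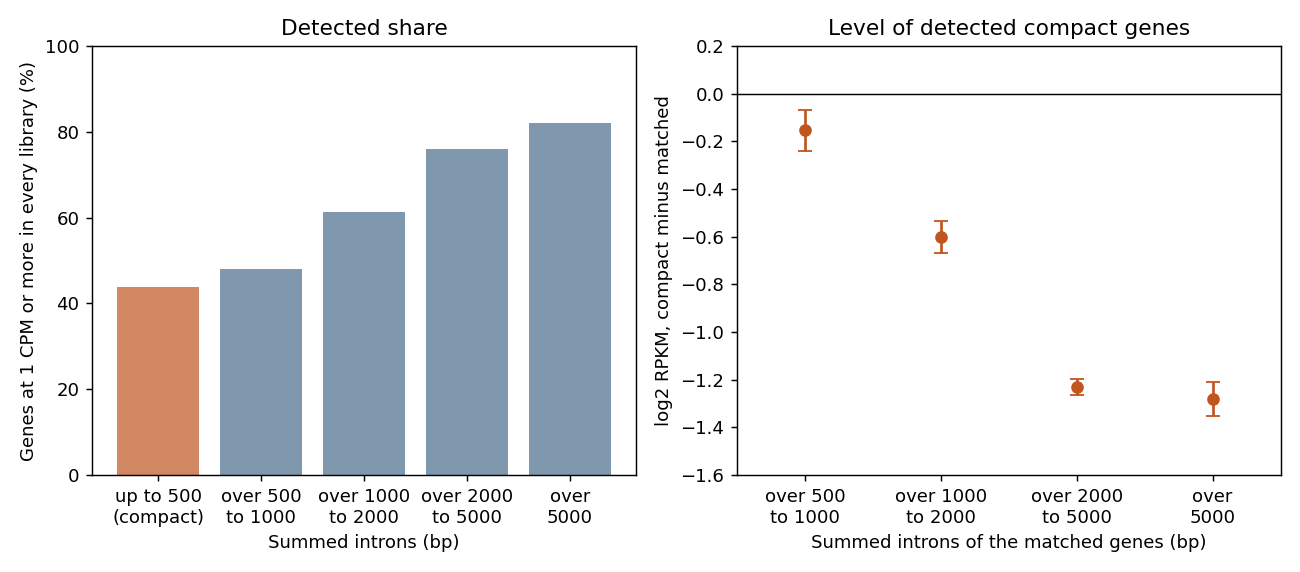
Left, share of genes with at least 1 CPM in every library for compact genes (orange) and for genes of longer introns matched on exon number and exon length (blue), by summed intron length in bp. Right, log2 RPKM of detected compact genes minus matched genes of each intron class (mean and SD over 4 libraries); the difference runs from -0.15 beside introns of over 500 to 1000 bp to -1.28 beside introns over 5000 bp.

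Several properties of the gene models moved with detection. In 1715 compact genes (78.2%) the summed exon length was a multiple of 3, as it is in a model that holds only the coding sequence, against 56.7% of other multi-exon genes. Of these, 36.4% were detected, against 70.5% of the 478 compact genes of other lengths. In the other multi-exon genes the shares were 76.0% and 91.9%. The difference from matched genes was -14.7 percentage points when this property was matched as well, against -17.9 without it. Overlapping exon models, meaning more listed exons than remained after merging, were present in 98 compact genes (4.47%) and 19.4% of the others. Whether they come from alternative transcripts was not examined. Of these 98 compact genes, 86 (87.8%) were detected. By exon number and exon length alone, 95 of them could be matched. Of these, 87.4% were detected, against 85.6% of their matched genes, a difference of 1.78 points in the other direction. When matched genes had to have overlapping exon models as well, 94 of the 98 could be matched, and 87.2% of these compact genes and 95.3% of their matched genes were detected, a difference of -8.11 points. Over all compact genes, matching on this property gave -17.3 points. The part of these properties in the detected share was not tested further.

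Very short gaps went with the lowest detection. Of the 118 compact genes whose shortest intron was under 20 bp, 23.7% were detected, against 58.1% of their matched genes. In 95.8% of these compact genes the exon length was a multiple of 3, a property not matched here. The 419 genes whose shortest intron was at least 20 and under 60 bp were detected in 46.3% of cases, against 66.2% of matched genes. Among the 171 compact genes with an intron of at least 30 and under 40 bp, 91 (53.2%) were detected, above the 43.8% of all compact genes. The 221 other multi-exon genes with such an intron went the other way, at 73.8% against 82.9% of their class. These shares were not matched on exon number or exon length. Genes whose shortest intron was 100 bp or more gave 43.6% in compact and 59.3% in matched genes. The shortest summed introns among detected compact genes, a single gap of 7 bp, are shared by EVM0004461, EVM0013662 and EVM0020573. EVM0004461 (LG07, 87004955 to 87005876, minus strand) had 5.78, 6.10, 7.06 and 4.96 RPKM in replicates 1 to 4. EVM0013662 (LG05, 166345274 to 166346581, plus strand) had 17.1, 18.5, 15.9 and 11.8 RPKM. EVM0020573 (LG03, 177550968 to 177551889, plus strand) had 4.26, 4.86, 5.85 and 3.78 RPKM. In all 3 genes replicate 4 was the lowest library. EVM0004461 and EVM0020573 have the same exon lengths in the same order, 915 bp in all, so reads may have been counted for both and their levels are uncertain.

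Detected compact genes also had lower levels than their matched genes. Their median was 17.3, 17.2, 17.7 and 15.4 RPKM in replicates 1 to 4, against 29.9, 28.8, 29.1 and 29.0 RPKM for the matched genes of the same 956 compact genes. The libraries of the 2 classes did not overlap. The median of the gene-by-gene differences was -0.86 ± 0.07 on the log2 scale (mean and SD over libraries, n = 4). The exact two-sided sign-flip p was 0.13, again the smallest possible, and it cannot judge the difference for the same reason as above. It was -0.65 ± 0.10 for 579 genes of 2 exons, -1.13 ± 0.08 for 264 of 3 exons, -0.86 ± 0.18 for 86 of 4 exons and -1.38 ± 0.06 for only 23 of 5 exons. These SDs are over libraries with the same genes, so they do not show how few genes a class holds. Beside introns of over 500 to 1000 bp it was only -0.15 ± 0.09, and beside introns over 5000 bp it was -1.28 ± 0.07. Against single-exon genes of like exon length, the level of compact genes was 0.21 ± 0.07 higher on the log2 scale.

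Within the compact class, level was weakly related to structure. Spearman's correlation of RPKM across the 961 detected compact genes was -0.03 ± 0.01 with exon number, -0.14 ± 0.01 with exon length and 0.09 ± 0.01 with summed intron length (mean and SD over libraries). These are correlations across genes of the same libraries, and detection itself depends on length. The difference from matched genes followed no single trend with summed intron length. On the log2 scale it was -1.09 ± 0.09 for introns of up to 100 bp, -0.95 ± 0.04 for over 100 to 200 bp, -0.72 ± 0.11 for over 200 to 300 bp, -0.54 ± 0.14 for over 300 to 400 bp and -0.86 ± 0.15 for over 400 to 500 bp. The gap was thus narrowest at over 300 to 400 bp and wider again in the last class. The change between the first and the last class, 0.23 ± 0.16, varied between 0.07 and 0.41 among libraries.

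A few compact genes reached levels far above their matched genes. EVM0015590, of 2 exons with a single intron of 163 bp (LG07, 87317439 to 87318258, plus strand), was the highest. It had 5672, 6265, 5725 and 9852 RPKM in replicates 1 to 4, and replicate 4 stood above the other libraries. Its mean of 6879 ± 2000 RPKM compares with a highest level of 376 RPKM among its 29 detected matched genes. EVM0015392, of 3 exons with introns of 197 and 90 bp (LG11, 116874357 to 116875870, plus strand), had 4411, 4056, 4533 and 4479 RPKM, with all libraries close together. The highest of its 87 detected matched genes had 624 RPKM. Both genes together held 14.97%, 14.1%, 14.6% and 19.6% of the counts of all compact genes in replicates 1 to 4. They were picked as the highest of their exon number. Of the other genes picked this way, EVM0011057 and EVM0022238 also lay above their highest matched genes. EVM0005090, EVM0025929, EVM0012854 and EVM0025515 lay below theirs. Genes with longer introns also reached high levels, with 8065 RPKM in the highest matched gene of EVM0006897. The identifiers are not paired with gene names or products in the files, so no function can be given.

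EVM0011057, the next of the genes with 2 exons, has an intron of 117 bp (LG05, 167470175 to 167471668, minus strand). It had 1503, 1348, 1408 and 1222 RPKM, lowest in replicate 4. EVM0022238, the next with 3 exons, has introns of 119 and 96 bp (LG12, 54534346 to 54535312, plus strand). It had 1285, 1227, 1173 and 820 RPKM, again lowest in replicate 4. EVM0005090 led the genes of 4 or 5 exons. Its 4 introns of 95 to 115 bp fall within the range of at least 70 and under 120 bp (LG12, 53704529 to 53705834, plus strand). Its 435, 454, 438 and 448 RPKM gave the smallest relative spread of the named genes, a coefficient of variation of 1.97%.

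EVM0025929, with 4 exons and introns of 136, 114 and 217 bp (LG09, 154948195 to 154949393, plus strand), varied far more. It had 321, 727, 223 and 122 RPKM in replicates 1 to 4, highest in replicate 2. EVM0012854, the highest of the genes with 6 or more exons, includes an annotated gap of only 4 bp (LG11, 3397326 to 3398285, minus strand). It had 39.9, 21.0, 26.1 and 14.8 RPKM. EVM0025515, also of 6 exons, has 2 introns of 29 bp (LG11, 52956987 to 52959558, minus strand). It had 8.73, 8.62, 8.35 and 5.98 RPKM, lowest in replicate 4. EVM0021016, the compact gene with the most exons, has 9 exons separated by gaps of 10 to 60 bp (LG09, 3685634 to 3688348, plus strand). It had 0 counts in all 4 libraries, while 46 matched genes were detected at a median of 41.6 RPKM.

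**Figure D4:**
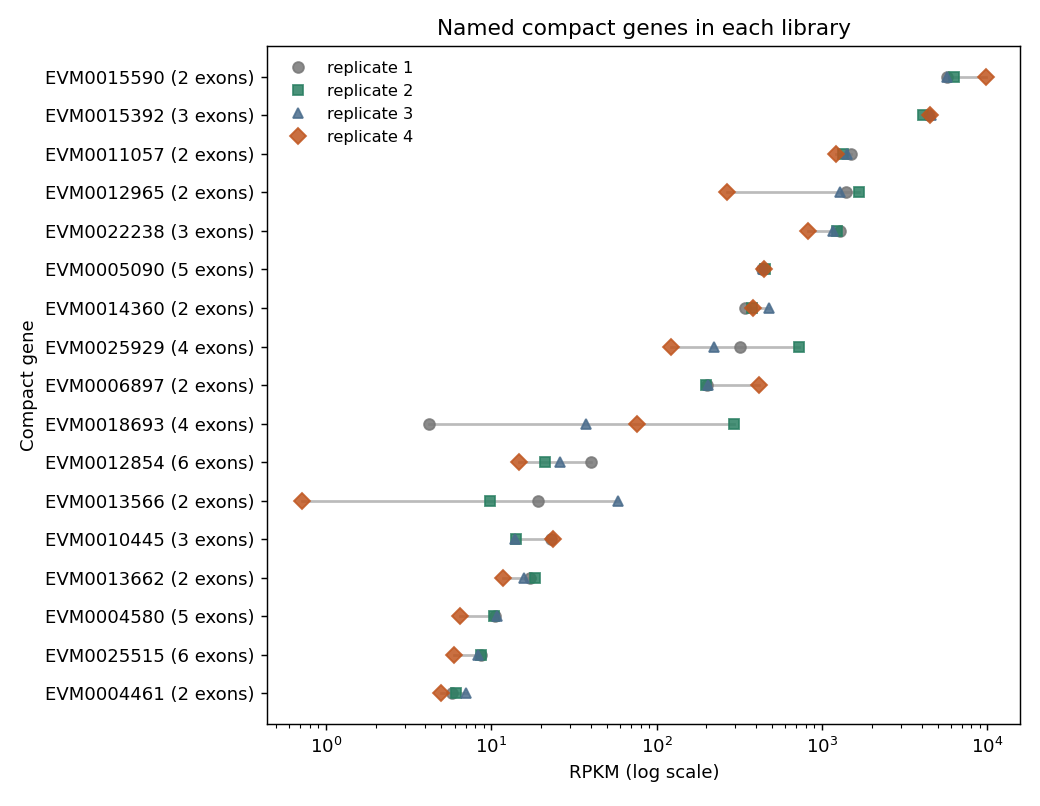
RPKM (log scale) of 17 named compact genes with counts, 1 gene per row with its exon number; each symbol is a library and grey lines join the lowest and the highest. Single values run from 0.713 RPKM in EVM0013566 to 9852 RPKM in EVM0015590, both in replicate 4, and replicate 4 is the library apart in several genes.

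The genes nearest the 500 bp limit are given as a description. EVM0004580, at exactly 500 bp of introns and 5 exons, had 10.6, 10.4, 10.9 and 6.44 RPKM in replicates 1 to 4. EVM0010445, at 499 bp and 3 exons, had 23.0, 14.0, 14.0 and 23.6 RPKM. Just outside, EVM0009636 and EVM0010211 both had 502 bp of introns. EVM0009636 had 60.4, 52.1, 51.7 and 76.3 RPKM, and EVM0010211 had 6.56, 6.04, 5.94 and 4.93 RPKM.

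Compact genes had a higher median spread between replicates than their matched genes, and lower levels, on which this spread depends. The biological coefficient of variation, the spread beyond counting noise as estimated by edgeR, had a median of 24.98% in 956 compact genes and 21.5% in their matched genes. The median of the gene-by-gene differences was 3.24 percentage points. Leaving out each of the 4 libraries in turn gave a standard error of 0.257 (jackknife). The fits shared the same libraries and genes, so this error does not cover variation among genes. Without replicate 1, 2, 3 or 4 the difference was 3.15, 3.14, 3.07 or 2.79 points, always below the value with all libraries. The standard error does not cover that shift either. When matched genes were also required to have a mean log2 CPM within 0.5 of the compact gene, the medians were 24.9% and 22.7% and the difference was 1.32 points in 896 genes. The size depends on the estimator, since DESeq2's gene-wise dispersions, which are not drawn towards a trend, gave 18.2% in compact and 14.2% in matched genes with level matched, a difference of 4.18 points. Below 10 CPM the classes were close, with 26.5% in compact genes and 26.8% in other multi-exon genes at 3 to 10 CPM. At 30 to 100 CPM they stood at 21.3% in compact and 19.1% in other genes, and at 100 CPM or more at 19.3% and 16.7%. The quartiles overlapped at every level. Against single-exon genes of like exon length the direction was the opposite, with 24.98% in compact and 26.5% in single-exon genes and a difference of -0.892 points. Level was not matched in this comparison, and it was lower in the single-exon genes, at 13.4 RPKM against 16.9 RPKM in compact genes.

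**Figure D5:**
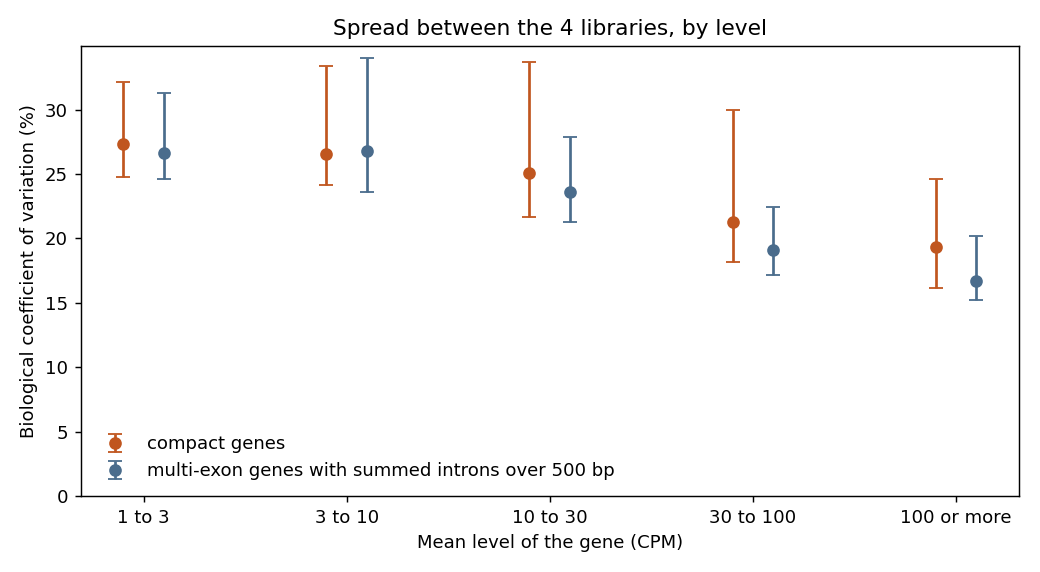
Biological coefficient of variation (%) between the 4 libraries by mean level (CPM), for detected compact genes (orange, left of each pair) and other detected multi-exon genes (blue, right). Points are medians and bars run between the quartiles over genes; medians nearly coincide below 10 CPM and are 19.3% against 16.7% at 100 CPM or more.

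Replicate 4 was the library least like the others. Across the 961 detected compact genes, Pearson's correlation of log2 CPM was 0.966, 0.974 and 0.964 among replicates 1 to 3, and 0.922, 0.927 and 0.909 between replicate 4 and each of them. In 52 compact genes (5.41%) replicate 4 lay more than 2-fold below all 3 other libraries, against 3.15% of all detected genes in these stretches. In 20 (2.08%) it lay more than 2-fold above, near the 1.87% of all detected genes. Counted the same way, replicates 1, 2 and 3 lay above in 1, 8 and 23 compact genes, and below in 7, 1 and 2. By this count replicate 4 stood out only in the low direction. For replicates 1 to 3 the shares of all detected genes are not given. Replicate 4 was apart in either direction in 72 (7.49%), against 5.03% of all detected genes there. The share was 7.53% of compact genes with matched genes and 4.42% of the matched genes. Leaving out replicate 1, 2 or 3 gave 90, 110 and 95 compact genes with replicate 4 apart, against 72 with all libraries. Fewer libraries then have to be passed. The share of all detected genes at these settings is not given, so these numbers say nothing particular about compact genes. Without replicate 4 the difference in coefficient of variation was 2.79 points, and with level matched as well it was 0.579 points. Whether replicate 4 differs in tissue composition or handling was not tested.

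EVM0012965 and EVM0006897 were the highest compact genes in which replicate 4 stood apart. EVM0012965, with an intron of 302 bp and only 171 bp of exon sequence (LG11, 45299958 to 45300430, plus strand), had 1400, 1681, 1294 and 267 RPKM. EVM0006897, with an intron of 95 bp (LG05, 18259299 to 18260578, plus strand), had 200, 198, 205 and 416 RPKM. Replicate 4 was thus low in EVM0012965 and high in EVM0006897. The largest dispersions among compact genes of at least 10 CPM did not come from replicate 4 alone. EVM0018693, of 4 exons with a gap of 8 bp and a neighbouring gene only 62 bp away (LG09, 6405675 to 6407169, minus strand), had 4.19, 295, 37.2 and 76.3 RPKM. EVM0013566, with an intron of 97 bp (LG03, 7984025 to 7984940, minus strand), had 19.2, 9.79, 58.7 and 0.713 RPKM.

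Many compact genes adjoined another. Of the 2193, 944 (43.0%) had a compact gene as the next gene on at least 1 side, against 32.7% of the other multi-exon genes. This was not tested, since neighbouring genes are not independent. Detection differed little between them, with 42.8% of the 944 and 44.6% of the other 1249 compact genes detected. The nearest gene lay a median of 6384 bp away for compact genes and 5227 bp for the others. EVM0014360 adjoins EVM0015590 at 7199 bp and was chosen after its values were seen. It has 2 exons and an intron of 244 bp (LG07, 87309756 to 87310239, plus strand), and had 344, 380, 480 and 385 RPKM in replicates 1 to 4, without the high value of replicate 4 seen in EVM0015590.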

How the data were processed

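RNA-seq of 4 taro apex libraries was used. The authors deposited whole read counts per gene, made with featureCounts 2.0.0 on exons and the reverse strand, with multiply aligned reads counted at each place, per the file headers. Trimmomatic 0.36 and HISAT2 2.0.5 are named in the submitters' processing notes. The headers name a Lachesis assembly without a build name, and coordinates are those of the files, counted from 1. The deposited RPKM values were recomputed from the counts within 1e-06 for all 28695 genes. CPM was computed from each library's total, between 22252534 and 25434148 counts.

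Members, lists and comparisons were chosen with earlier results of these data known. Comparison genes had the same exon number, an exon length within 10% and introns over 500 bp. Shares were averaged over the comparison genes of each compact gene, and levels compared with their median. Dispersions came from edgeR 4.0.16 (tagwise, TMM, intercept-only, 10349 genes with 1 CPM in every library or passing its default filter) in R 4.3.3. Tagwise values are drawn towards a common trend, which makes differences smaller. DESeq2 1.42.0 gave an alternative. The matching and the dispersion fit were tested on simulated data. Python 3.11.15 with scipy 1.17.1 was used otherwise. Named genes were the highest 2 in each exon class, those with the most exons, the shortest introns, the highest and lowest dispersion, nearest the limit, and the highest 2 with replicate 4 apart.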

Additional observations from a re-analysis of the deposited data

Results flagged for a closer look

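Dixon's test at the 95% level, on the gap of the outermost library over the range, was applied to 24 values and passed in 4. Chance gives about 1 in 20 independent values, and genes of the same libraries are not independent. The library apart was replicate 4 in all 4 cases. EVM0015590 stood at 9852 RPKM in replicate 4, against 5672 to 6265 RPKM in the others. EVM0006897, which had been chosen because replicate 4 stands apart in it, stood at 416 RPKM, against 198 to 205 RPKM. EVM0025515 was low at 5.98 RPKM, against 8.35 to 8.73 RPKM. EVM0004580 was low at 6.44 RPKM, against 10.4 to 10.9 RPKM.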

How the results depend on the processing

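No result over all compact genes changed direction under the alternatives that were run with multi-exon comparison genes. Within the class, the 98 compact genes with overlapping exon models had a difference in detected share of 1.78 points under the main matching. Beside single-exon genes, the difference was 1.49 points in detected share, 0.21 (log2) in level and -0.892 points in spread. With a library left out, the difference in detected share lay between -18.0 and -16.3 percentage points, that in level between -0.96 and -0.86 (log2), that in coefficient of variation between 2.79 and 3.15 points, and the change in level from introns of up to 100 bp to those of over 400 to 500 bp between 0.15 and 0.26 (log2). Detected compact genes then numbered 965 to 1017, and those with replicate 4 apart 90 to 110, a number that cannot be had without replicate 4. The shares over all genes at these settings are not given.

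The difference in detected share was -15.5 points with 1 CPM in 2 libraries, -15.1 with 10 counts in every library and -7.47 with 1 count in any library. At this last setting 1616 compact genes (73.7%) passed, against 86.1% of all genes in these stretches. With the limit on introns at 300 bp, which moves the comparison genes too, the difference in detected share was -14.2 points and the spread difference 2.92. At 1000 bp these were -26.5 and 3.64, with a level difference of -1.08. Beside genes with introns over 2000 bp the differences were -35.1 points, -1.31 in level and 4.99 in spread. The level difference was -0.72 for all genes on the log2(RPKM + 1) scale without a filter, and the same on the TPM scale by construction. The spread difference was 1.32 with level matched, 5.15 with DESeq2 dispersions and 6.87 without a filter on low counts. Chosen after seeing the data, matching on multiples of 3 gave -14.7 points, matching on overlapping exon models -17.3 points, and genes with all introns of 60 bp or more gave -16.7 points and -0.75 in level. Also chosen then, the spread difference with level matched was 4.18 by DESeq2 and 0.579 without replicate 4. Causes were not tested except where construction gives them. Compact and matched genes were paired within each library, and no replicate block between sample groups exists, since the study has a single group. Depth limits single genes to about 3 counts.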
